A study of Salmo salar with 57 samples.

Results

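The comparison concerned Atlantic salmon (Salmo salar) fed soybean meal together with the yeast Candida utilis (CU, 10 fish). They were set against salmon fed the same amount of soybean meal with the yeast Saccharomyces cerevisiae (SC, 10 fish). Each kg of either diet contained 295 g of fish meal, 200 g of yeast and 200 g of soybean meal, and the diets differed in the yeast alone, as far as the compositions given here go. The 20 arrays of these fish were taken from 57 by the diet letter in their titles, letter D for CU and letter E for SC. The labels give no diet beside the letter, and the key from letters to diets rests on the histology scores of each fish, which the labels hold and the study shows by diet. The other arrays were from fish fed fish meal without soybean or yeast (FM, 10 fish), soybean meal without a microbial ingredient (SBM, 7 fish), and soybean meal with Kluyveromyces marxianus (KM, 10 fish) or Chlorella vulgaris (CV, 10 fish). All fish were non-vaccinated post smolts in seawater, killed after 4 weeks on the diet, and RNA came from the distal intestine, 1 fish per 1-colour Agilent array. Each diet went to triplicate tanks, but the labels name no tank, so fish were treated as independent and p-values measure the spread between fish only. SBM had 7 fish because the study left out 1 tank.

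The distal intestine of salmon takes up nutrients through enterocytes, whose apical brush border carries peptidases and transporters and whose cytoplasm is rich in lysosome-like vacuoles. Soybean meal is known to cause an inflammation there, in which the mucosal folds shorten, the supranuclear vacuoles of the enterocytes shrink and leukocytes enter the lamina propria. Both yeasts are used as protein-rich feed ingredients, and their walls hold mannans, glucans and chitin. The question put to these arrays was which transcripts differed between fish given either yeast together with soybean meal.

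Of 14841 probes, 12065 were bright enough to be tested. The scanner gave fewer usable spots on some arrays than on others, with 1757 to 2762 spots set to missing per CU array and 1619 to 2738 per SC array. An array's mean correlation with its own group was 0.974 to 0.979 in CU and 0.979 to 0.985 in SC. The spread between fish was wider in CU, with a median SD per probe of 0.35 in CU and 0.28 in SC on the log2 scale. All 10 CU arrays lay in column 1 of their slides and 9 of 10 SC arrays in column 4, so that position on the slide and diet can hardly be told apart. With the column as a covariate, 117 probes were called, 97 of them also called without it. The median SE was 0.26 with the covariate and 0.14 without. Of the 1471 probes called without the covariate, 98.5% kept their sign with it, against 78.2% of all probes. Those calls were made on the same arrays, which raises the share of kept signs in advance, so that share does not separate position from diet. SC fish 10, the only SC array in column 1, lay on the SC side of the CU mean for 94.8% of the 1352 probes called without that fish, against 74.1% of all probes. The same CU arrays called these probes and set the side, which raises this share in advance, so it does not separate position from diet.

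A probe was called differentially expressed (DE) at an adjusted p of at most 0.05 in limma and a log2 fold change (FC, CU minus SC) of at least 0.4 in size. CU and SC differed at 1471 of 12065 probes (12.2%), of which 559 (4.63%) were higher and 912 (7.56%) lower in CU. At a size of 1 or more, 112 probes were higher and 99 lower. The median log2 FC was 0.67 among probes called higher and -0.64 among those called lower, against -0.06 over all probes. The fish of the groups did not overlap at 66 probes (0.547%), 58 higher (0.481%) and 8 lower (0.0663%) in CU. Both diets were on 9 slides. The direction was the same on all 9 at 491 of the 1471 called probes, against 609 (5.05%) of all 12065, the called ones included. The calls were made on these same arrays, which raises their number in advance. Position ran with diet within the slides too, so this agreement does not separate them.

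Gene names were at hand for 2328 probes, which the study had listed because they differed from FM in at least 1 diet, so gene lists built from them are no independent evidence. Of these named probes 34.5% were called, 14.2% higher and 20.3% lower in CU. The CU minus SC counts of each list below are to be read against those shares. Of 127 called probes followed through other settings, 13 kept their call with array column as a covariate and 93 with normexp background correction.

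Most of the genes with the largest rise in CU are known from the absorptive epithelium. CD36, a fatty acid receptor and transporter, had log2 intensities of 6.71, 8.16 and 10.29 (lowest, median and highest fish) in CU, against 4.16, 5.83 and 7.75 in SC. The groups overlapped, and the mean was 5.66-fold higher in CU (log2 FC 2.50 ± 0.55 SE, limma adjusted p = 0.00106). ACE, a peptidase of the brush border, ran 10.88, 11.61 and 12.76 in CU and 7.75, 9.70 and 10.75 in SC. Every CU fish lay above every SC fish for ACE (log2 FC 2.15 ± 0.30, limma adjusted p = 1.88e-06), and its other probe was higher in CU as well, by 1.75. FABPI, the intestinal fatty acid-binding protein of enterocytes, had 14.28, 14.91 and 15.44 in CU and 11.98, 13.24 and 14.33 in SC, a log2 FC of 1.71 ± 0.29 (limma adjusted p = 2.83e-05) where the lowest CU fish lay just under the highest SC fish.

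FABPI was not among the 10 largest rises, whose genes other than CD36 and ACE had log2 FC between 1.72 and 2.04. MA2B1, a lysosomal mannosidase that trims mannose from glycoproteins, had 7.41, 8.84 and 10.05 in CU, against 5.32, 6.88 and 7.76 in SC (log2 FC 2.04 ± 0.37, limma adjusted p = 9.17e-05). A further probe of MA2B1 rose by 1.3. S26A6, an anion exchanger of the apical membrane, had 7.19, 7.70 and 8.45 in CU, against 4.51, 6.11 and 7.37 in SC (log2 FC 1.76 ± 0.23, limma adjusted p = 4.96e-07). FCGBP, a protein of intestinal mucus, rose by 2.02 ± 0.45, and S13A2, a sodium-coupled carrier of dicarboxylates, by 2.02 ± 0.51. Without fish 8 to 10 of every diet, FCGBP was at 1.52 (limma adjusted p = 0.0581) and S13A2 at 1.6 (limma adjusted p = 0.101), both past the limits no longer. GIMA5, a GTPase known from lymphocytes, had 9.80, 11.19 and 11.56 in CU, against 7.67, 8.08 and 11.33 in SC. Some SC fish were thus as high as CU fish for GIMA5, and its log2 FC was 1.99 ± 0.49 (limma adjusted p = 0.00323). The 2 largest rises among probes without a name were 3.16 for Ssa_S18862026, whose call was lost at 2.20 without fish 8 to 10, and 2.91 for Ssa_S30235658.

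**Figure D1:**
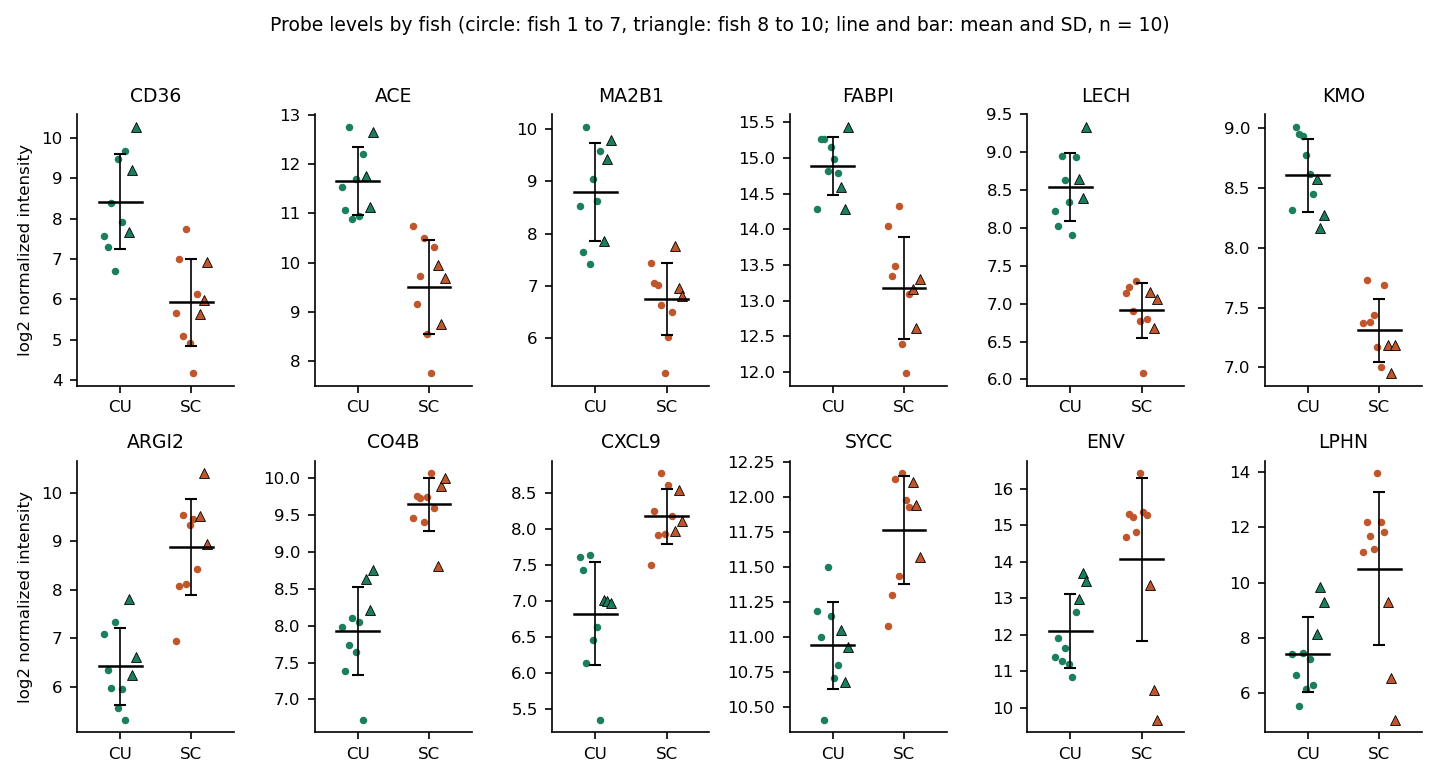
Normalised log2 intensity (vertical axis) of 12 genes in each fish, CU left and SC right, with circles for fish 1 to 7 and triangles for fish 8 to 10 of a diet, and line and bar for mean and SD. The upper panels show genes higher in CU, where ACE, LECH and KMO do not overlap, and the lower panels genes lower in CU, where CO4B does not overlap and where ENV and LPHN are high in SC fish 1 to 7 only.

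Genes of brush border digestion and nutrient uptake were higher in CU at 24 of 40 probes and lower at 5, with a median log2 FC of 0.72. The mean over the list's probes was 9.09 to 9.82 in CU fish and 8.44 to 9.1 in SC fish, and 9 of 10 CU fish lay above all SC fish. Peptidases among the risers included MEP1B, a meprin subunit, at 1.40, XPP2, an aminopeptidase, at 1.26, and AMPE, glutamyl aminopeptidase, at 0.72. Transporters of several substrates rose, among them S6A19 for neutral amino acids (1.11), S15A1 for peptides (0.66), SC5A1 for glucose (0.67 and 0.92), S39A4 for zinc (1.02) and COPT1 for copper (0.94). The 5 that fell were AQPA, an aquaporin, at -1.41, ENTK, the enteropeptidase that activates trypsinogen, at -1.23, MRP3, an organic anion pump, at -0.63, CTR1 at -0.62 and SC5A6, a vitamin transporter, at -0.51, and 3 fell without fish 8 to 10 of every diet. Defining markers of enterocytes, most of whose genes also stand in the lists of uptake or lipid absorption, were higher in CU at 9 of 16 probes and lower at 1 (K2C8, a simple epithelial keratin, -0.50), and their summed intensity was 175648 to 370954 in CU and 139900 to 211558 in SC. In bulk tissue, fewer cells of a type and less RNA per cell cannot be told apart.

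Genes of lipid absorption and lipoproteins divided, with 9 of 26 probes higher and 10 lower in CU and a median of 0.16. Among the risers were CD36 and FABPI, given above. The apolipoproteins APA12 (13.29, 14.64 and 15.69 in CU, against 11.04, 12.83 and 13.88 in SC) and APA11 (12.41, 13.39 and 14.50 in CU, against 9.91, 11.57 and 12.66 in SC) rose by 1.76 ± 0.39 and 1.72 ± 0.37 (limma adjusted p = 0.00118 and 0.000806). APOA4, an apolipoprotein of intestinal lipoproteins, rose by 1.74 ± 0.45 at 1 probe and by 0.99 ± 0.32 at the other, and without fish 8 to 10 of every diet neither was called (1.43 and 0.87), the probe at 0.99 also being lost without CU fish 5, 7 or 10 or SC fish 3 or 6 (0.86 to 0.90). MOG2A, a monoacylglycerol acyltransferase of fat resynthesis, rose by 1.05. Those lower in CU were PLTP, a phospholipid transfer protein (-0.99), LIPE, the endothelial lipase (-0.99, and -0.79 and not called without fish 8 to 10), PLIN2, a coat protein of lipid droplets (-0.97), CETP (-0.80), FABPH (-0.71), APOEB (-0.70), both probes of GPAT4, CIDEC (-0.53) and DGAT1 (-0.49). In synthesis of cholesterol and unsaturated fatty acids, 2 of 16 probes were called, both higher in CU, for the sterol reductase DHCR7 (0.80) and the elongase ELOV5 (0.79).

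Lysosomal genes were higher in CU at 31 of 51 probes and lower at 2, with a median of 0.48. The fish means ran from 10.67 to 11.63 in CU and from 10.21 to 10.95 in SC. Beside MA2B1, the risers included BGAL, a galactosidase (1.19 to 1.44 at 3 probes), CATC, a dipeptidyl peptidase (0.85 and 1.3), and SAP, the precursor of the saposins (0.45 to 0.63 at 3 probes). The protease CATL rose by 1.49, a call lost without CU fish 6, 7 or 10, without SC fish 5 or 6 (1.25 to 1.35) and without fish 8 to 10 of every diet (1.41). PAG15, a lysosomal phospholipase, and CATK, a cathepsin, were at -0.96 and -0.44, and PAG15 was not called without fish 8 to 10 (-0.93).

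Peroxisomal and fatty acid oxidation genes were higher at 11 of 28 probes with none lower, and a median of 0.41, and 7 probes were higher without SC fish 6. HAOX2, a hydroxyacid oxidase, had 9.56, 10.16 and 11.12 in CU, against 8.04, 9.14 and 9.67 in SC (log2 FC 1.11 ± 0.18, limma adjusted p = 2.03e-05). OXDA, D-amino-acid oxidase, rose by 0.96 and CATA, the catalase that removes hydrogen peroxide, by 0.95. Drug and xenobiotic metabolism had 17 of 44 probes higher and 5 lower (3 lower without CU fish 2), with a median of 0.34. EST2, a carboxylesterase, did not overlap between the groups (9.72, 10.05 and 11.36 in CU, against 7.91, 8.65 and 9.63 in SC) and rose by 1.44 ± 0.25 (limma adjusted p = 4.92e-05). CP2D6, a cytochrome P450, rose by 1.24 and ARY1, an arylamine acetyltransferase, by 1.16. The P450 enzyme CP2J2 fell by 0.84 and the glutathione transferase GSTT1 by 0.67.

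**Figure D2:**
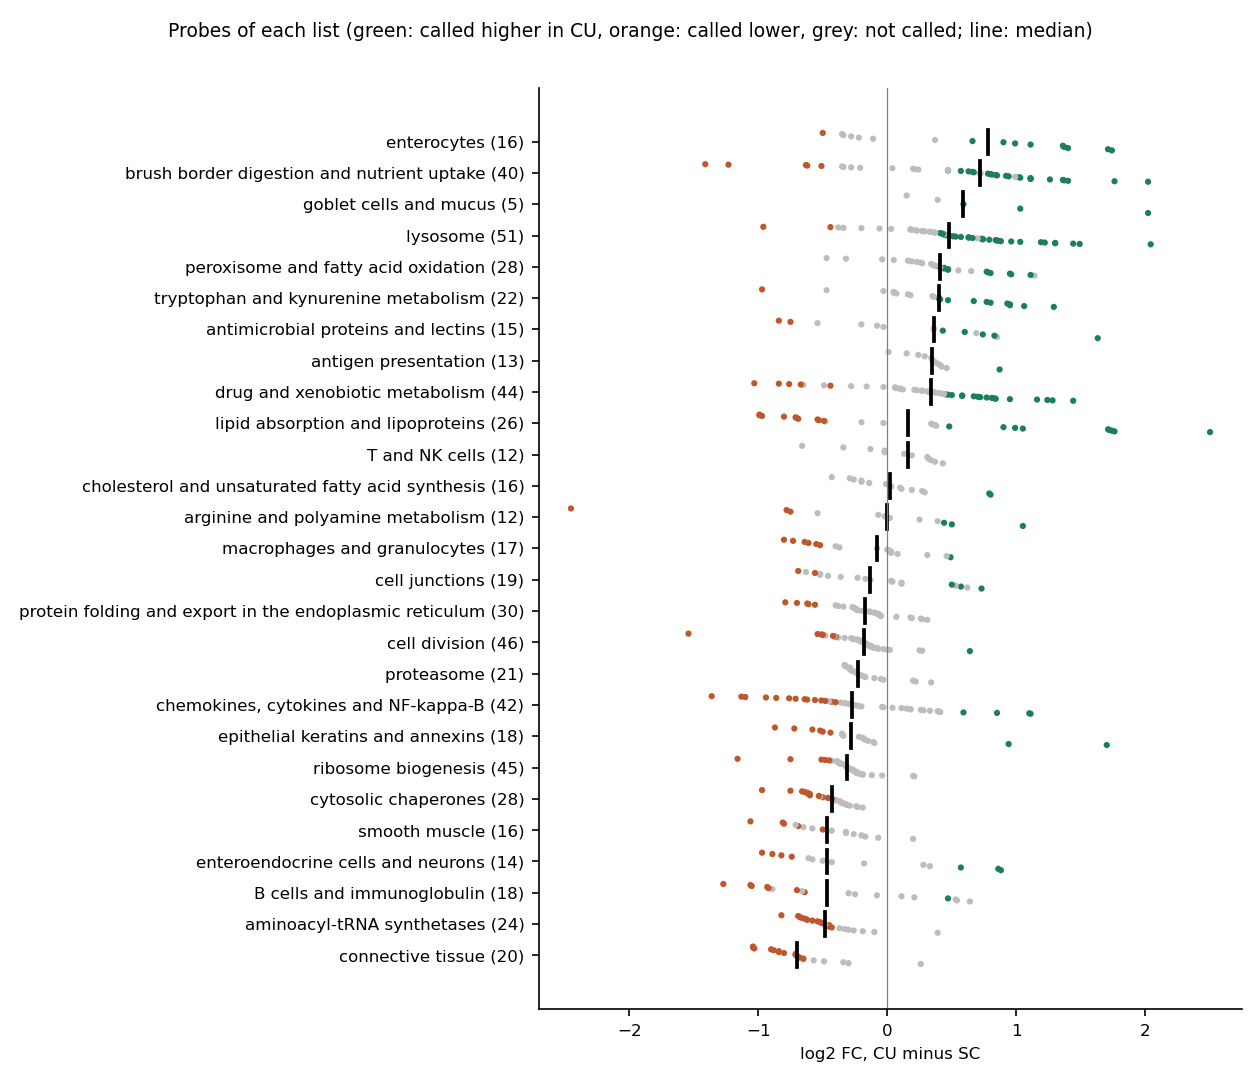
Log2 FC, CU minus SC (horizontal axis), of every tested probe in each gene list (rows, number of probes in brackets), with green points called higher in CU, orange points called lower, grey points not called, and a black line at the list's median. Enterocyte markers and the brush border list sit highest, with medians of 0.78 and 0.72, and connective tissue lowest, with -0.70.

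Tryptophan is broken down along the kynurenine pathway or turned into serotonin, and in this list 12 of 22 probes were higher in CU and 1 lower (8 higher without SC fish 6 and 5 with normexp background correction). KMO, which hydroxylates kynurenine, had 8.16, 8.59 and 9.01 in CU, against 6.95, 7.28 and 7.73 in SC. The KMO levels did not overlap (log2 FC 1.29 ± 0.19, limma adjusted p = 4.82e-06), and its other probe rose by 0.93. I23O2, a dioxygenase of the first step, rose by 1.06 ± 0.31, on 9 CU and 7 SC arrays with a measured value, the others being imputed, and was not called without fish 8 to 10 of every diet (0.94). AFMID, the formamidase of the next step, rose by 0.41, KYNU, which splits kynurenines, by 0.80, AADAT, an aminotransferase, by 0.40, and ACMSD, which takes the path away from quinolinate, by 0.67. ADO (0.95), CATA, both probes of ECHP (0.47 and 0.77) and ALDH2 (0.40) rose too. CATA and ECHP also stand in the peroxisome list and ADO in the drug list, so the counts of these lists are not separate results. AADAT, AFMID and ALDH2 lay so close to the limit of 0.4 that leaving out any 1 of 8, 7 and 8 fish ended their calls (0.34 to 0.40), and ECHP at 0.47 was at 0.40 and not called without SC fish 6. The exception was TPH1, the first enzyme of serotonin synthesis, with 3.25, 4.26 and 5.44 in CU, against 4.86, 5.27 and 6.17 in SC. TPH1 fell by 0.97 ± 0.31 (limma adjusted p = 0.0248, 1 CU value imputed), and this call was lost without CU fish 5, without CU fish 6 and without SC fish 3 (-0.88 to -0.85). GCDH (0.36), A9A1A (0.35), DDC (0.18), THIC (0.05), CP1A1 (-0.03 and 0.07) and the 3 probes of AL3A2 (-0.47 to 0.16) did not pass the limits.

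In the metabolism of arginine and polyamines, 3 of 12 probes were higher and 3 lower. ARGI2, the mitochondrial arginase that makes ornithine and urea, had 5.32, 6.30 and 7.82 in CU, against 6.95, 9.13 and 10.40 in SC. ARGI2 was 5.45-fold lower in CU (log2 FC -2.45 ± 0.32, limma adjusted p = 4.91e-07) with the highest CU fish above the lowest SC fish, and it kept its call with array column as a covariate (-2.75, adjusted p = 0.0354). ASSY, which joins citrulline and aspartate, and DCAM, which makes the aminopropyl donor of polyamines, were lower by -0.78 and -0.75. SPEB, annotated as agmatinase, rose by 1.05 (7.29, 7.81 and 8.45 in CU, against 5.88, 6.72 and 7.38 in SC), and SAT1 and PAOX, which acetylate and oxidise polyamines, rose by 0.50 and 0.44. SAT1 was not called without CU fish 3, CU fish 6 or SC fish 6 (0.39 to 0.46), nor was PAOX without SC fish 6 (0.38). The ornithine decarboxylases DCOR (0.02) and DCOR1 (-0.07), spermidine synthase SPEE (-0.02), SMOX (0.39), SAT2 (0.25) and OTC (-0.54) did not pass the limits.

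**Figure D3:**
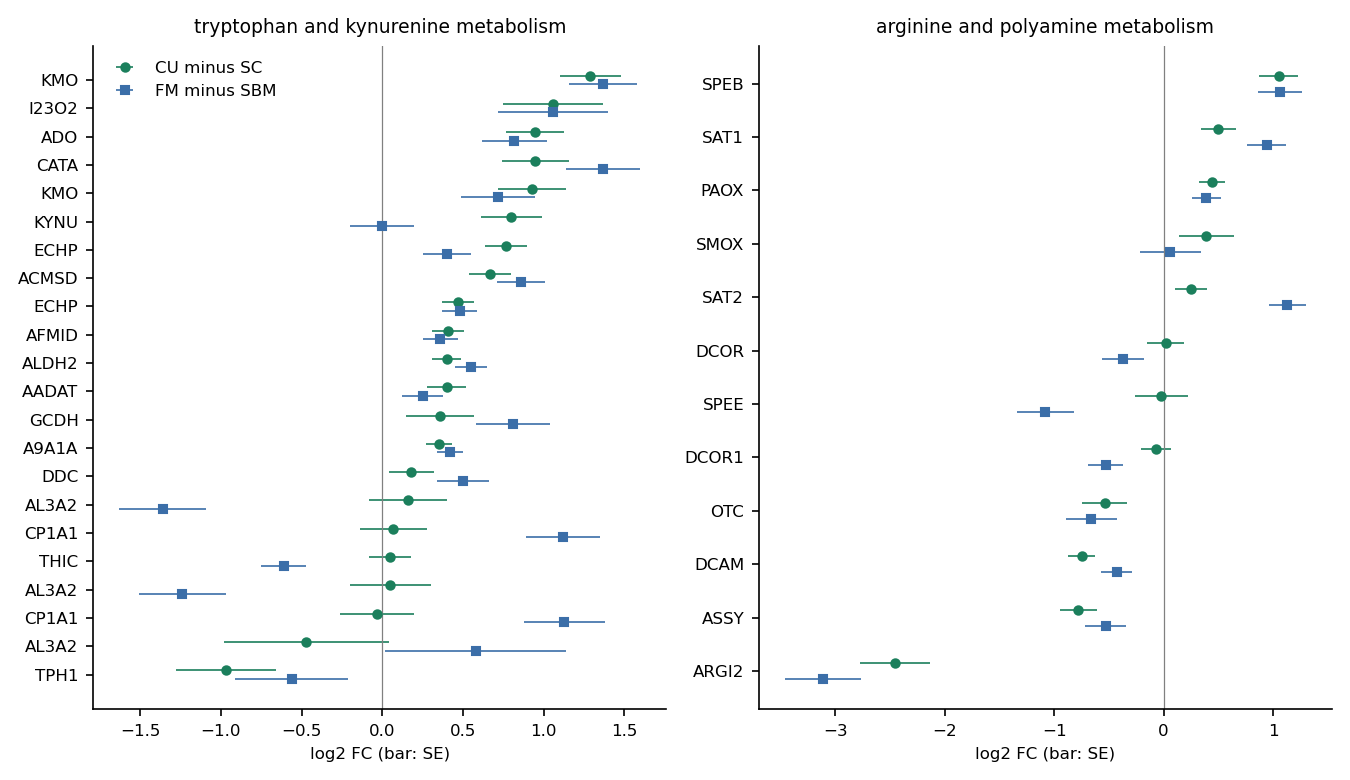
Log2 FC with its SE (horizontal axis) of every probe in the tryptophan (left) and arginine (right) lists, as green circles for CU minus SC and blue squares for FM minus SBM. KMO, I23O2 and SPEB lie right of 0 in both contrasts and ARGI2 left of 0 in both, at -2.45 in CU minus SC and -3.11 in FM minus SBM, while KYNU is at 0.80 in CU minus SC and 0.00 in FM minus SBM.

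Antimicrobial proteins and lectins had 5 of 15 probes higher and 2 lower, with 3 higher without CU fish 5 or without fish 8 to 10 of every diet. LECH, a lectin named after a hepatic receptor, had 7.91, 8.51 and 9.34 in CU, against 6.08, 6.98 and 7.30 in SC, without overlap (log2 FC 1.63 ± 0.20, limma adjusted p = 1.37e-07). LYG, the goose-type lysozyme that cleaves bacterial cell walls, had 11.59, 11.84 and 12.41 in CU, against 10.30, 11.15 and 11.45 in SC, again without overlap (log2 FC 0.83 ± 0.13, limma adjusted p = 7.5e-06). The intelectin ITL1A rose by 0.74 (0.58 and not called without SC fish 6), and the lectin AJL2 by 0.60, a call that leaving out any 1 of 12 fish ended (0.52 to 0.62). Probes named MBL2, a mannose-binding lectin, disagreed, at 0.43 and -0.84, the first not being called without CU fish 2, 4 or 5 or SC fish 7 (0.36 to 0.38), and C209A fell by 0.75. LYSC2 (-0.03), HEPC1 (-0.20), CLC4M (-0.54), LECA (0.36), INTLP (0.36), C209B (0.69) and NATTE (0.85 and -0.08) did not pass.

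Among chemokines, cytokines and members of the NF-kappa-B pathway, 4 of 42 probes were higher and 14 lower, with a median of -0.27, and 9 were lower without fish 8 to 10 of every diet. The 4 higher probes were of CCL21 and CCL25, chemokines that draw lymphocytes to lymphoid tissue and to the gut. CCL25 had 12.28, 12.67 and 13.20 in CU, against 11.01, 11.58 and 12.24 in SC (log2 FC 1.1 ± 0.15, limma adjusted p = 1.56e-06), and CCL21 rose by 0.59 to 1.11 at 3 probes. The largest fall was that of CXCL9, a chemokine induced by interferon, with 5.34, 6.98 and 7.64 in CU, against 7.50, 8.15 and 8.77 in SC (log2 FC -1.36 ± 0.26, limma adjusted p = 0.000244). CXL11 (-0.76), CCL19 (-1.13), CCL20 (-0.94 and -1.1), the adhesion molecules VCAM1 (-0.86) and ICAM1 (-0.51), and the cytokine IL18 (-0.40 and -0.56) were lower too. Without fish 8 to 10 of every diet CCL19 was at -1.23 and the first CCL20 probe at -0.82, neither called, and CCL19 also lost its call without CU fish 3, CU fish 6 or SC fish 6 (-0.99 to -0.88). CO4B, a complement factor, did not overlap between the groups, with 6.72, 8.02 and 8.76 in CU, against 8.81, 9.74 and 10.07 in SC (log2 FC -1.72 ± 0.24, limma adjusted p = 1.22e-06).

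Markers of leukocytes moved less uniformly. Of 18 probes for B cells and immunoglobulin, 7 were lower and 1 higher in CU (3 lower without fish 8 to 10 of every diet), with summed intensities of 3103 to 6715 in CU and 4587 to 13665 in SC. MUCM, the membrane form of the Ig mu chain, had 10.19, 10.94 and 12.10 in CU, against 11.35, 12.28 and 13.33 in SC (log2 FC -1.27 ± 0.33, limma adjusted p = 0.00527, with 1 SC value imputed), and BLNK, an adaptor of B cell signalling, rose by 0.47 (0.39 and not called without SC fish 6). Markers of macrophages and granulocytes were lower at 6 of 17 probes, CSF3R (-0.80) and EMR4 (-0.73) first, and higher at 1, MPEG1 (0.49), whose call leaving out any 1 of 7 fish ended (0.42 to 0.49). Without CU fish 3, 3 of these probes were lower. No probe of T and NK cells passed (12 probes, median 0.16). All 13 probes of antigen presentation had a log2 FC above 0, and 1 of them, HMR1, an MHC class I-related gene, passed (0.87), while 5 passed without CU fish 2. The part of these cells in the chemokine values was not tested.

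Among genes of protein synthesis and folding, those of tRNA charging and cytosolic chaperones were most often lower in CU. Of 24 probes for aminoacyl-tRNA synthetases and their cofactors, which load amino acids on tRNA, 16 were lower and none higher, with a median of -0.48, and 10 were lower without fish 8 to 10 of every diet. The fish means of this list were 9.77 to 10.38 in CU and 10.06 to 10.76 in SC, with 5 CU fish below all SC fish. SYCC had 10.41, 10.96 and 11.50 in CU, against 11.08, 11.93 and 12.17 in SC (log2 FC -0.82 ± 0.14, limma adjusted p = 5.2e-05), and SYWC fell by 0.69. Cytosolic chaperones had 14 of 28 probes lower, a median of -0.43 and no log2 FC above 0. HS90B, a heat shock protein, was lower by -0.97 and the chaperonin subunits TCPE and TCPQ by -0.66 and -0.64. Shares under the 20.3% of all named probes were called lower in the endoplasmic reticulum (5 of 30 lower, TERA at -0.79 first), ribosome biogenesis (5 of 45 lower, RRN3 at -1.16 first, -0.94 and not called without SC fish 5) and the proteasome (0 of 21, median -0.23). In cell division, 6 of 46 probes were lower, PSF3 (-1.54) first, and GEMI, an inhibitor of replication licensing, rose by 0.64. These counts leaned on single fish, with 3 probes of ribosome biogenesis and 2 of cell division lower without CU fish 3, and 14 and 9 without CU fish 4. RRN3 and PSF3 were high in SC fish 1 to 7 only, a pattern over fish numbers described below. In SC fish 8 to 10 PSF3 was at 8.31 to 9.28, against 8.16 to 9.59 in CU.

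Keratins and annexins had 6 of 18 probes lower and 2 higher. K1C13, a type I keratin, rose by 1.70 at 1 probe, whose lowest CU fish and highest SC fish were both at 7.84. Its other 2 probes were at -0.10 and -0.17, not called. ANXA1 (-0.87 and -0.72), ANXA4 (-0.58), ANX2A (-0.52) and K2C8 fell. ANXA2 had a probe at 0.94 and others at -0.44 and -0.35, the last not called. Among genes of cell junctions, the claudins CLD14 (0.73) and CLD15 (0.57) and tricellulin, MALD2 (0.50), rose, while JAM3 (-0.69) and cingulin, CING (-0.56), fell, out of 19 probes, and CING was not called without CU fish 3, CU fish 7 or SC fish 6 (-0.51 to -0.45). In this list 1 probe was lower without CU fish 3 and 4 without CU fish 4. Goblet cell and mucus genes were higher at 3 of 5 probes, FCGBP, OLFM4 (1.03) and AGR3 (0.59), and the fish means did not overlap, at 8.13 to 9.03 in CU and 7.09 to 8.09 in SC. The call of OLFM4 ended on leaving out any 1 of 15 fish (0.91 to 1.05). Genes of enteroendocrine cells and neurons divided, with the peptide precursors TKN1 (0.88), GLUC1 (0.86) and CCKN (0.57) higher and UCHL1 (-0.89), PDYN (-0.82), SYT4 (-0.74) and TPH1 lower, and 7 lower in place of 4 without CU fish 10 or without fish 8 to 10 of every diet. GLUC1 was at 0.58 and not called without fish 8 to 10.

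Markers of connective tissue were lower in CU at 14 of 20 probes and higher at none, with a median of -0.70. They included collagens (CO6A2 -1.04, CO6A1 -1.03, CO1A2 -0.65), the matrix protease MMP2 (-1.04), FBLN1 (-0.90), fibronectin FINC (-0.88) and the proteoglycans LUM (-0.84) and PGS2 (-0.80). Their summed intensity was 47389 to 174041 in CU and 111253 to 178269 in SC. The CU fish were not alike, since the list's mean was 8.96 to 9.81 in CU fish 1 to 7 and 10.25 to 10.6 in CU fish 8 to 10, against 9.94 to 10.58 in SC. FM fish had a like division, with 9.33 to 9.75 in fish 1 to 7 and 10.33 to 10.55 in fish 8 to 10. Without fish 8 to 10 of every diet the median was -1.08 and 16 probes were lower. Smooth muscle markers were lower at 5 of 16 probes, SYNEM (-1.06), FLNA (-0.81, and -0.68 and not called without CU fish 7) and MYH11 (-0.80) first, and at 10 without fish 8 to 10, at 3 without CU fish 7 and at 8 without CU fish 9. The part of these markers in the values of the other lists was not tested. The brush border means of CU fish 8 to 10 were 9.31 to 9.82, above the highest SC fish at 9.1, and their lysosome means 11.06 to 11.63, above the highest SC fish at 10.95. In some other lists the same CU fish overlapped with SC. Their peroxisome means were 9.3 to 9.87, with SC fish up to 9.42. Their cytosolic chaperone means were 10.77 to 11.1, with SC fish from 11.05, and their aminoacyl-tRNA synthetase means 9.91 to 10.21, with SC fish from 10.06.

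**Figure D4:**
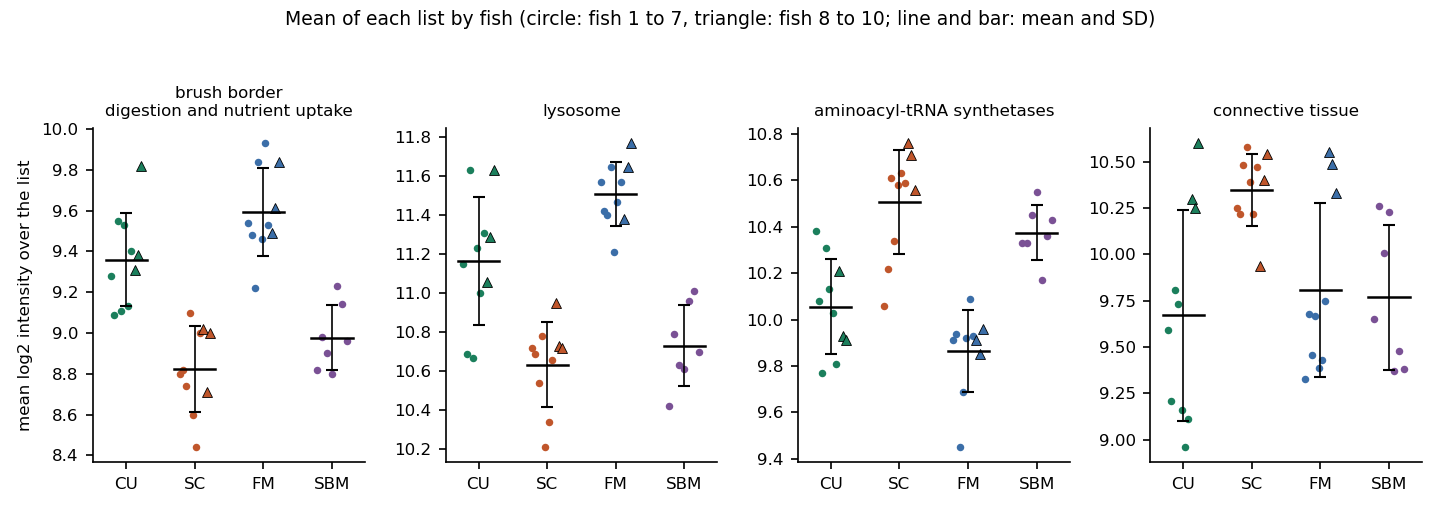
Mean log2 intensity over the probes of a list (vertical axis) in each fish of CU, SC, FM and SBM (left to right), with circles for fish 1 to 7, triangles for fish 8 to 10, and line and bar for mean and SD. Most CU fish lie above the SC fish in the brush border and lysosome panels, and in connective tissue the triangles of CU lie at 10.25 to 10.6, among the SC fish, above the circles of CU.

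Several of the largest falls followed 1 pattern over fish numbers, which the labels give without saying what they stand for. ENV, an envelope glycoprotein of retroviral type, had 10.83 to 12.61 in CU fish 1 to 7 and 12.98 to 13.69 in CU fish 8 to 10, against 14.68 to 16.42 in SC fish 1 to 7 and 13.37, 10.47 and 9.66 in SC fish 8, 9 and 10. LPHN, annotated as a latrophilin, had 5.53 to 7.46 and 8.13 to 9.84 in those CU fish, against 11.1 to 13.96 in SC fish 1 to 7 and 5.02 to 9.3 in SC fish 8 to 10. The lower mean in CU (log2 FC -1.96 ± 0.59 for ENV and -3.10 ± 0.73 for LPHN, limma adjusted p = 0.0163 and 0.00212) thus lay with SC fish 1 to 7. High levels were not particular to SC. ENV ran from 11.01 to 15.05 in FM fish 1 to 7 and from 12.9 to 15.41 in SBM. LPHN ran from 6.45 to 12.08 and from 8.71 to 12.55 in those fish. Without fish 8 to 10 of every diet ENV was at -3.75 and LPHN at -5.34 (limma adjusted p = 1.49e-06 and 1.14e-06), a choice made after the values were seen. With array column as a covariate ENV was at 0.22 and LPHN at -0.24 (limma adjusted p = 0.93 and 0.937), and in a fit of CU and SC arrays alone ENV was not called (-1.96, limma adjusted p = 0.0769). Across the 20 arrays, 26 other probes had a correlation of at least 0.9 with ENV, a description chosen after the values were seen. Of those 26, 22 were called lower in CU, against 7.56% of all probes. ENV was itself lower in CU on these same arrays, which raises that count in advance, so the count is no further evidence. A gene name was at hand for 8 of the 26, CTBP2, CTF8A, LPHN, B3GN2, ZBED4, RRN3, F263 and PSF3. CTBP2, a transcriptional corepressor, was lower by -2.02 at this probe and by -0.36, not called, at its other probe. With the column the first CTBP2 probe was at 0.05, and with CU and SC arrays alone it was not called (limma adjusted p = 0.0568). The 2 largest falls without a gene name, Ssa_GRASP209153991 (-2.88) and Ssa_DW543822 (-2.15), had correlations of 0.98 and 0.978 with ENV, and with the column they were at 0.18 and 0.74. With CU and SC arrays alone Ssa_DW543822 was not called (limma adjusted p = 0.0797). ARGI2, CO4B and TSP1, the thrombospondin (-1.59 ± 0.32), did not have this pattern, with correlations of 0.324, 0.465 and 0.534, and FAK1, focal adhesion kinase (-1.65), and B3GLT, a glucosyltransferase (-1.45), were in between at 0.866 and 0.853.

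FM and SBM, which hold no yeast and share no array with CU or SC, gave a second contrast for the same probes. The FM diet held more fish meal than the SBM diet, and both held more than the CU and SC diets. FM minus SBM is thus not a change in soybean meal alone, and its base diet is not that of CU and SC. FM minus SBM had 2994 called probes (24.8%), 1076 higher (8.92%) and 1918 lower (15.9%) in FM. Of the CU minus SC calls, 84.8% had the same sign in FM minus SBM, against 65.9% of all probes, and 742 were called in both with 1 sign, which is 50.4% of the CU minus SC calls and 24.8% of the FM minus SBM calls. The opposite sign was called at 8 probes. Of the probes higher in CU 92.1% were above 0 in FM minus SBM, against 41.1% of all probes, and of those lower in CU 80.3% were below 0, against 58.9% of all probes. The log2 FC of both contrasts correlated across probes at 0.553 over all and 0.799 over the called ones, and probes are not independent replicates. With array column as a covariate in both contrasts the correlation over all probes was 0.0128. In that fit both contrasts share the estimated column terms, and the median SE of CU minus SC was 0.26 in place of 0.14. The lower correlation thus does not measure how much of the likeness lies with position. The columns of the FM and SBM arrays are not given here, and the part of position in the likeness of the contrasts was not tested. Of the 117 probes called for CU minus SC in that fit, not of the calls above, 47% had the same sign in FM minus SBM. In both contrasts 0.855% of those probes were called with 1 sign. Without the column, CD36 was at 2.50 in CU minus SC and 3.19 in FM minus SBM, ACE at 2.15 and 2.50, LECH at 1.63 and 1.53, and ARGI2 at -2.45 and -3.11.

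**Figure D5:**
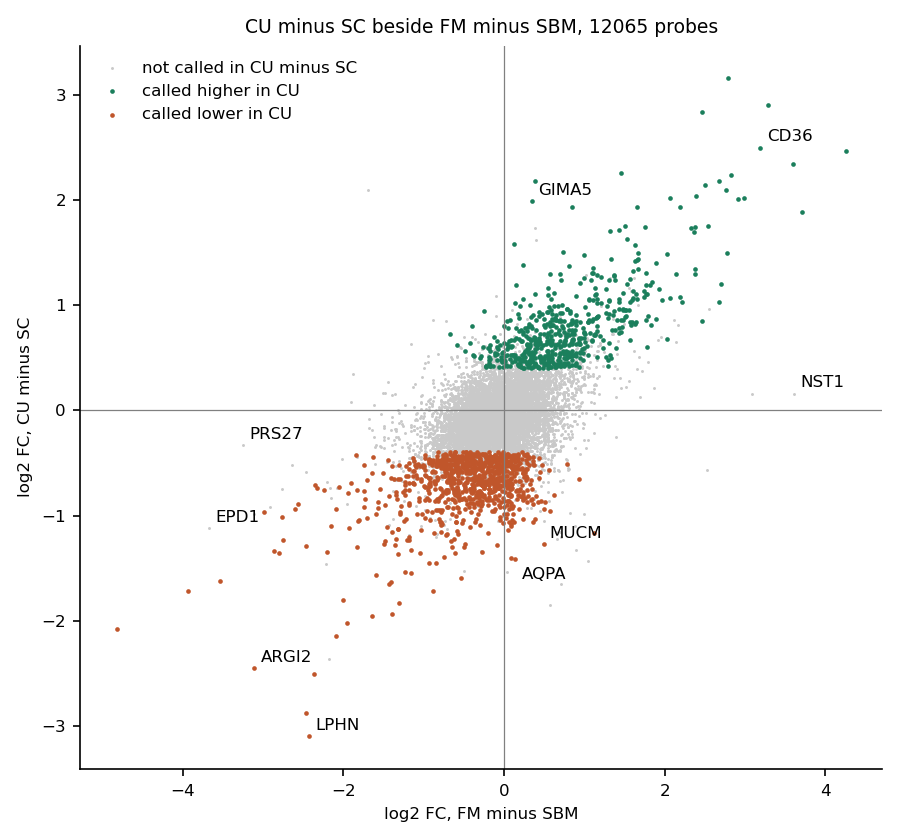
Log2 FC of CU minus SC (vertical axis) against that of FM minus SBM (horizontal axis) for 12065 probes, green where called higher and orange where called lower in CU, grey where not called. CD36 lies in the upper right and ARGI2 and LPHN in the lower left, while AQPA at -1.41 and MUCM at -1.27 lie below 0 with FM minus SBM at 0.14 and 0.49.

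The difference of the contrasts was tested in the same limma model and called at 732 probes (6.07%), 390 above 0 (3.23%) and 342 below (2.83%). Of these, 142 were also called in CU minus SC. With array column as a covariate the difference was called at 1 probe, and without CU fish 1 at 388. Background correction and normalization moved the count too, to 587 with normexp and 1348 with 75th percentile scaling. PRS27, a serine protease, was at -0.33 in CU minus SC and -3.25 in FM minus SBM, a difference of 2.91 ± 0.57 (limma adjusted p = 0.00227). EPD1, an ependymin, was at -1.12 and -3.67 and FOXA1, a transcription factor of endoderm, at -0.75 and -2.76, with differences of 2.56 and 2.01. SBM holds fish 1 to 7 alone, and without fish 8 to 10 of every diet 629 probes were called for the difference, FOXA1 (2.25, limma adjusted p = 0.0573) and MUCM (-1.84, 0.0547) not among them. Below 0 were NST1 (0.16 in CU minus SC and 3.61 in FM minus SBM), ZN180, a zinc finger protein (-1.17 and 1.12), and MUCM (-1.27 and 0.49). The lists hold named probes, which the study listed for differing from FM, and FM is part of this difference. Their counts are thus no independent evidence, and the share of all named probes called for the difference was not computed. By list, keratins and annexins were above 0 at 9 of 18 probes and none below. Genes of the endoplasmic reticulum were above 0 at 7 of 30 with 2 below (3 above without fish 8 to 10 of every diet). Cell junctions were above 0 at 6 of 19 and cholesterol synthesis at 5 of 16, both with none below. In these 4 lists FM minus SBM had medians of -1.08, -0.55, -0.53 and -0.68, and CU minus SC -0.28, -0.17, -0.13 and 0.02. Genes of drug metabolism were below 0 at 7 of 44 probes, among them both of CP1A1, a P450 enzyme induced by aromatic compounds, at -0.03 and 0.07 in CU minus SC, against 1.13 and 1.12 in FM minus SBM. Connective tissue markers were below 0 at 4 of 20, with medians of -0.70 in CU minus SC and 0.08 in FM minus SBM. Without fish 8 to 10 of every diet they were below 0 at 8 of 20, with medians of -1.08 in CU minus SC and -0.27 in FM minus SBM. AQPA fell in CU and was at 0.14 in FM minus SBM (limma adjusted p of the difference 0.0327).

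The labels also score each fish for lamina propria, epithelium, atrophy and oedema. Since the key from letters to diets rests on these scores, they are described and not tested. The sum over the 4 categories was 0 to 6 in CU with a median of 0.75, and 1.5 to 8 in SC with a median of 7. Sums of 0 were given to 4 CU fish, the highest CU sum was that of fish 4, and the lowest SC sums of 1.5 were those of fish 1 and 10.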

How the data were processed

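RNA of the distal intestine of 57 fish was hybridised to 57 1-colour Agilent arrays, scanned and read with Feature Extraction 10.7.1.1. The spot intensity used here was deposited by the authors with the background already subtracted and the arrays not yet normalised to each other, and a table of log2 values normalised by the authors served as an alternative. Of 15377 spots per array, 536 control spots were left out. Dim spots (by the scanner's flags for significance and for signal above background) and uneven spots were set to missing, intensities were quantile normalised and log2 transformed (no pseudocount), and probes missing on over 15% of the arrays were left out. The 4245 remaining missing values (0.617%) were imputed from the 10 nearest probes. A limma model (limma 3.58.1, R 4.3.3) with 6 diets over all 57 arrays gave the contrasts, with Benjamini-Hochberg adjustment over 12065 probes, and was tested on simulated data. These steps follow the study's methods with some exceptions. For the limit on missing spots, the number of nearest probes and the limit on log2 FC, the study's text used here gives no number. For the adjustment of p-values, the study took limma's nestedF method over its contrasts against FM. There was 1 spot per probe and no saturated spot, and the number of arrays limits the precision. Gene names came from tables in the study's supplement, so 668 of the 1471 called probes are unnamed. No probe sequence was used here.

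Named genes were the 10 largest rises and falls among called, named probes measured on all 20 arrays, the 2 largest unnamed ones in each direction, up to 3 called members in each direction per list, the 3 largest differences of the contrasts in each direction, and all members of the antimicrobial, tryptophan and arginine lists. Other members named in the counts of a list were chosen after their values were seen. Members and lists were chosen with earlier results of these data known. No named probe of exocrine pancreas or erythrocyte markers was among those tested. Some genes that this rule named are not reported here.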

Additional observations from a re-analysis of the deposited data

Results flagged for a closer look

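Fish far from the rest of their diet were looked for in 232 groups of 10 fish, and 13 were found. Chance alone gives about 1 in 20, which is near the share found. The groups are not independent, since the same fish recur in them. SC fish 6 was the fish in 6 of the 13. It was low for APA12 (11.04, the other SC fish 12.36 to 13.88), APA11 (9.91, others 11.27 to 12.66), LECH (6.08, others 6.68 to 7.3), ARY1 (8.61, others 10.46 to 11.54) and HAOX2 (8.04, others 8.93 to 9.67), and high for ANX2A (14.79, others 13.52 to 14.18). SC fish 8 was low for CO4B (8.81, others 9.41 to 10.07), MMP2 (11.85, others 12.36 to 12.89) and CO6A1 (6.17, others 6.93 to 7.49), and high for SAT1 (9.98, others 8.78 to 9.39). SC fish 4 was low for ZN180 (13.11, others 15.34 to 17.15). In CU, fish 9 was high for ADO (6.96, others 5.7 to 6.18) and fish 4 for the immunoglobulin probe KV403 (8.4, others 6.59 to 7.21).

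CU minus SC differed from FM minus SBM, by the test of the difference itself, at 732 probes, and at 1 probe with array column as a covariate. The largest named differences were 2.91 for PRS27, 2.56 for EPD1 and 2.01 for FOXA1 above 0, and -3.45 for NST1, -2.29 for ZN180 and -1.76 for MUCM below 0.

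Outside the probes tested, Ssa_S18892504 was well above background on 9 CU arrays and 1 SC array (9 in FM and 3 in SBM), and Ssa_S48395699 on 1 CU array and 9 SC arrays (4 in FM and 7 in SBM). Neither has a gene name here, and both were too dim for a lower bound of the fold.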

How the results depend on the processing

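The position of the array on its slide is the main limit. With array column as a covariate, 117 probes were called in place of 1471, 14 probes of the lists in place of 214, and the difference of the contrasts at 1 probe in place of 732. The counts of 14 and 214, and the total counts of list probes below, leave out the lists of cell type markers. Of 127 called probes followed through the settings, some of them without a gene name, 13 kept their call with the column. Among these were ARGI2, CO4B, CXCL9, LECH, CCL21 and CCL25, and the cell type markers MMP2, CO6A1, FBLN1 and CSF3R. The sign changed at 4 of the 127, ENV to 0.22, CTBP2 to 0.05, Ssa_DW543822 to 0.74 and Ssa_GRASP209153991 to 0.18, while LPHN was at -0.24. Other settings changed the count of called probes by more than 1.5 times in 2 cases, normexp background correction (809, with the median signal since the mean signal was not in the files, chosen after seeing the data) and a log2 FC of at least 1 (211, and 46 probes of the lists). Normexp ended the calls of 34 of the 127 probes followed, and 93 kept theirs. Among those ended were CATA, ADO, KYNU, the KMO probe at 0.93, DHCR7, PLIN2, ASSY, C209A, ANXA4 and TERA. JAM3, MALD2, AGR3, CCKN, PDYN, SYT4, CO6A1, SYNEM and MYH11 were among them too. With normexp lists that lost calls included chemokines (8 lower in place of 14), lipid absorption (5 lower in place of 10), peroxisome (6 higher in place of 11), B cells (3 lower in place of 7), macrophages (3 lower in place of 6) and smooth muscle (1 lower in place of 5). The share of calls higher in CU was 38% and became 49.3% without a filter on dim spots, 50.2% with dim spots taken out after normalization, 54% with the median taken off, 53.1% at a log2 FC of at least 1 and 11.1% with the column. The share of calls with the same sign in FM minus SBM (84.8%) was taken over the calls of each setting. It was 78.2% with 75th percentile scaling, 82% without the filter on dim spots, 82.4% with dim spots taken out later and 87.6% with normexp. It was 87% with CU and SC arrays alone, 47% with the column (of its 117 calls), 93.4% at a log2 FC of at least 1 and 89.1% without fish 8 to 10 of every diet. The difference of the contrasts was called at 1348 probes with 75th percentile scaling, 1203 without the filter, 1297 with dim spots taken out later, 1266 with the authors' normalised values and 166 at a size of at least 1, and could not be fitted with CU and SC alone. Probes above background in 1 yeast group numbered 2, and 0 when 10 arrays against 0 were asked for. The cause was not tested in any of these cases. Leaving out each fish in turn gave 1216 (without CU fish 3) to 1697 (without CU fish 4) called probes, 184 to 242 in the lists, 82.5% to 88.3% with the same sign, and 388 (without CU fish 1) to 945 (without CU fish 10) for the difference. Leaving out fish 8 to 10 of every diet, a choice made after seeing the data, gave 1390 called probes. It ended the calls of 20 of the 127 probes followed. With fish number as a replicate block, 1542 probes were called and 88.1% had the same sign, but the numbers did not pair the fish. The deviations of same-numbered CU and SC fish from their group means correlated at -0.222 to 0.268, and 4 of 10 pairs were over 0.1.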
